A study of Mus musculus with 4 samples.

Results

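The genes described here encode the subunits of the mitochondrial respiratory chain and ATP synthase. They were taken from the deposited count table as all protein-coding genes on the mitochondrial chromosome (MT) and all protein-coding genes whose symbols follow the naming patterns of complexes I to V (Nduf, Sdh, Uqcr, Cyc1, Cycs, Cox4 to Cox8 with a letter, and Atp5). The rule found 97 of the 22027 protein-coding genes in the table, 84 encoded in the nucleus and 13 in mitochondrial DNA. The rule itself uses no expression change, but it was chosen with earlier results of these data known. Of the 97 genes, 92 reached a CPM (counts scaled to library size) of 1 in at least 1 library. They were 79 nuclear genes and all 13 mitochondrially encoded ones. The 5 genes below that level, Cox6a2, Cox6b2, Cox7b2, Cox8b and Cox8c, had 0 or 1 counts in every library. The faintest genes just inside it were Cox7a1 with 23 to 33 counts and mt-Atp8 with 26 to 32. The 79 nuclear genes comprised 36 of complex I, 4 of complex II, 9 of complex III, 11 of complex IV (Ndufa4 included), 15 of complex V, the electron carrier Cycs, and 3 that are not core subunits (Cox7a2l, Atp5s and Atp5sl). Cox4i1, a core subunit of complex IV, does not match the name pattern and is given with the related genes.

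Respiratory complexes I to IV pass electrons from NADH and succinate to oxygen, complexes I, III and IV pump protons across the inner mitochondrial membrane, and complex V uses the proton gradient to make ATP. Most subunits are encoded in the nucleus, translated in the cytosol and imported, whereas a small core set in complexes I, III, IV and V is transcribed and translated inside the organelle from mitochondrial DNA. Complex II is wholly nuclear. Both genomes must supply subunits of the same complexes, so their transcripts are commonly set side by side. Mitochondrial genes are transcribed as long polycistronic RNAs, which are cut at the transfer RNAs that lie between most of them, so the level of each messenger also depends on processing and stability.

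RNA-seq was performed on Myc-CaP cells, a line derived from a prostate tumour of an FVB mouse carrying the Hi-Myc transgene, in which a modified probasin promoter drives human MYC. All cells shared this background and stably carried either hairpins against focal adhesion kinase (FAK, encoded by Ptk2; shFAK) or a negative control hairpin (shNC). Each line was treated for 24 h with 10 µM norepinephrine, the transmitter of sympathetic nerves, or with vehicle. The 4 groups (each line with and without norepinephrine) had 1 library each, so no difference has a replicate check, and an effect of the hairpin cannot be told apart from any other difference between the 2 lines. The labels do not state whether a line was 1 clone or a pool, nor what the vehicle was.

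The libraries held 23410486 to 29948640 counts. Ptk2 had 3547, 3158, 1294 and 1248 counts in shNC with vehicle, shNC with norepinephrine, shFAK with vehicle and shFAK with norepinephrine, that is 40.8% of the shNC level in vehicle and 43.9% in norepinephrine. Per-library values are given in this order throughout. Among luminal prostate markers, Hoxb13 (1095 to 1321 counts) and the keratin gene Krt8 were detected, and Krt8 was lower in shFAK (153, 165, 50 and 48 counts), while Krt18, Epcam and Cdh1, which define epithelium, had 0 to 15 counts. Of the markers of other cell types, 0 of 4 endothelial, 1 of 5 leukocyte, 1 of 5 muscle and 2 of 7 fibroblast genes passed the level filter, the leukocyte one being Cd68 (24 to 36 counts) and the muscle one Acta1 (159 to 204 counts), and Ptprc, Cd3e and Adgre1 had 0 or 1 counts. The 2 fibroblast genes, Pdgfra (276, 198, 326 and 299 counts) and Col1a1 (11, 4, 24 and 24), were called higher in shFAK, while Col3a1, Dcn and Lum had 0 counts. Col1a1 reached a CPM of 1 only in the shFAK norepinephrine library. It was thus tested because it was high in shFAK, and its call is not a separate result. The part of these markers and of Krt8 in the hairpin results was not tested. A short-gene pattern runs through the whole table: over all 12351 kept genes, the log2 ratio of shFAK to shNC increased with gene length (Spearman 0.32 in vehicle and 0.47 in norepinephrine) and the ratio of norepinephrine to vehicle went down with it (-0.49 in shNC, -0.29 in shFAK). Respiratory genes are short (median 1701 bases for the nuclear ones and 784 for the mitochondrial ones, against 3981 for all kept genes), so counts with the length trend removed are given beside the main counts.

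The promoters of the nuclear genes are known for binding sites of NRF1, ETS-family factors such as GABPA, and YY1, and promoter windows from RefSeq (GRCm38.p6; 250 bases before to 50 after the annotated start) were matched by symbol to 68 of the 79. The motif GCGCANGCG (NRF1; N is any base), searched on both strands, was found in 21 of 68 genes (30.9%), against 7.03% of 27025 genes with a window and 16.8% of the kept protein-coding genes with one. CCGGAAG (ETS) was found in 16 (23.5%, against 9.93% and 21.9%), AAGATGGC (YY1) in 11 (16.2%, against 3.19% and 5.68%), CACGTG (E-box) in 7 (10.3%, against 8.09% and 12.3%) and TGACGTCA (cAMP response element, CRE) in 5 (7.35%, against 2.03% and 3.82%). None of the 5 was found in 22 of 68. Matches to different motifs were counted separately, and the NRF1 motif can match both strands of 1 site. The 250 bases before the start of 3 genes are shown because they carry NRF1 matches beside another motif in genes that matter below: Cox6a1 is the nuclear member with the highest level per length, Ndufa11 is a complex I gene that passed the tests of both factors, and Cycs encodes cytochrome c. Matches are in capitals, read in the direction of the gene. The windows are chr5:115348959-115349208 on the minus strand for Cox6a1 (3 NRF1 matches and 1 ETS match), chr17:56717512-56717761 on the plus strand for Ndufa11 (2 NRF1 matches on overlapping letters and 1 CRE match) and chr6:50566570-50566819 on the minus strand for Cycs (1 NRF1 match and 1 CRE match).
Cox6a1: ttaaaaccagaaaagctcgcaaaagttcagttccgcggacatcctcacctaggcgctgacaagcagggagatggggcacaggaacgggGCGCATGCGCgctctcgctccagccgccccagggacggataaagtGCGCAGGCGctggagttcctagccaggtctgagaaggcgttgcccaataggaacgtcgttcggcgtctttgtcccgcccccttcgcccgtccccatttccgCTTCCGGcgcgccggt
Ndufa11: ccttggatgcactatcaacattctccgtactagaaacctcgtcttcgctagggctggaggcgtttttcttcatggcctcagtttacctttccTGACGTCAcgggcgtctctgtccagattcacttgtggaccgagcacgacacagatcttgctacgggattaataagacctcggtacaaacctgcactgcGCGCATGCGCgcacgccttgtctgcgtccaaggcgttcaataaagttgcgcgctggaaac
Cycs: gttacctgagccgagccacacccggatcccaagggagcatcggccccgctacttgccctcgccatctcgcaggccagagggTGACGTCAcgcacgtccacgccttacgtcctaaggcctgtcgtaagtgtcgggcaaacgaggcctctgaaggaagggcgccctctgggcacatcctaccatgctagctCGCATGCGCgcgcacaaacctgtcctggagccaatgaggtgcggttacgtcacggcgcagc
Median log2 ratios were similar with and without the NRF1 motif. In the hairpin test below, 14 of 21 genes with NRF1 were called lower in shFAK and 22 of 47 without (16.2% of all kept genes were). For YY1 these counts were 8 of 11 and 28 of 57. The share was lower with the motif for ETS (7 of 16 and 29 of 52), E-box (2 of 7 and 34 of 61) and CRE (2 of 5 and 34 of 63). In norepinephrine, the median log2 ratio of shFAK to shNC was -0.35 in the 21 genes with the NRF1 motif and -0.31 in the 47 without, and the median response to norepinephrine in shNC was 0.17 in the 5 genes with the CRE and 0.29 in the 63 without. The contrasts between genes with and without a motif were not tested.

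For the nuclear genes 1 library, shNC with norepinephrine, stood apart. Scaled by the TMM method, 75 of the 79 nuclear genes had their highest CPM in the shNC norepinephrine library (of all kept genes, 34.5% did). Set against each gene's geometric mean over the 4 libraries, the median log2 level was -0.03 and 0.26 in the shNC libraries (vehicle, then norepinephrine) and -0.14 and -0.07 in the shFAK libraries. The nuclear genes together took 1.31%, 1.52%, 1.27% and 1.33% of all counts. The mitochondrially encoded genes took 1.19%, 1.11%, 1.38% and 1.29%. The nuclear share was highest in shNC with norepinephrine, where the mitochondrial share was lowest. The ratio of mitochondrial to nuclear counts was 0.908 and 0.735 in the shNC libraries and 1.08 and 0.975 in the shFAK libraries. In bulk RNA, fewer cells of a type and less RNA per cell cannot be told apart.

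**Figure D1:**
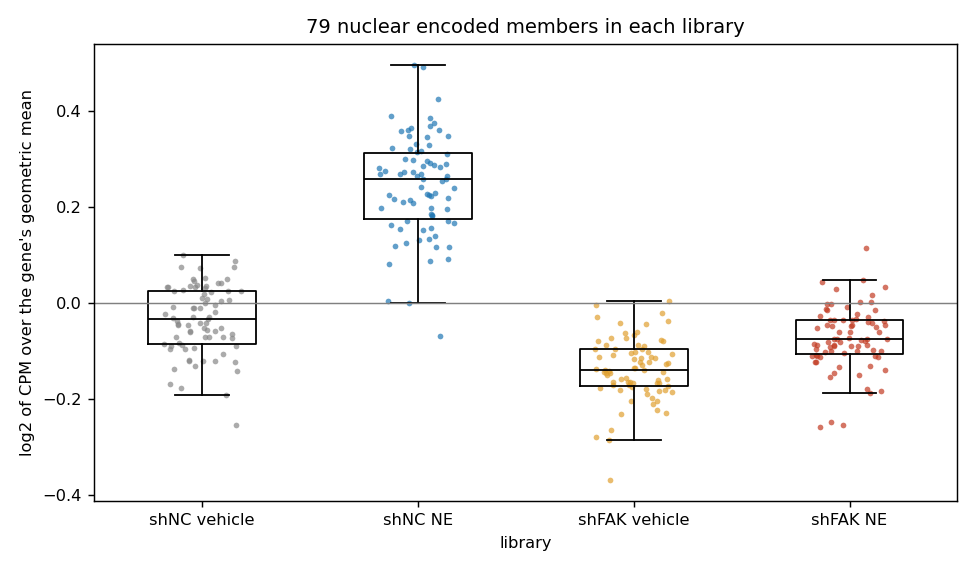
Level of each of the 79 nuclear genes in the 4 libraries, as log2 of CPM over the gene's geometric mean; points are genes, boxes span the quartiles with the median as a line, whiskers reach 1.5 times the box height at most, and NE is norepinephrine. The shNC norepinephrine library lies highest with a median of 0.26, and the shFAK vehicle library lowest with a median of -0.14.

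The first comparison asks how the shFAK line differed from the shNC line. Its p-values come from a model with 1 residual degree of freedom that borrows its spread from all genes, so they do not measure variation between independent lines. In an additive model of hairpin and treatment over the 4 libraries (edgeR quasi-likelihood test, Benjamini-Hochberg adjusted p under 0.05 over all kept genes), 41 of 79 nuclear genes (51.9%) were lower in shFAK, against 16.2% of all kept genes. None was higher, against 19.5% of all kept genes, and 0 were higher also at an unadjusted p under 0.05 (edgeR). The Wald test of DESeq2 called 0 higher and 8 lower, against 912 and 760 of all 12351 kept genes. In 52 of 79 both shFAK libraries lay below both shNC libraries (65.8%, against 29.2% of all genes), and in 0 did both lie above (against 30.3%). The shift was small in vehicle, with a median log2 ratio of -0.10 and 71 of 79 genes below 0, and larger in norepinephrine, with a median of -0.32 and 77 of 79 below 0. The 2 pairs share no library, and across the 79 genes their ratios correlated with Spearman 0.485 and Pearson 0.525 (0.702 and 0.600 across all kept genes), a correlation across genes, which are not independent replicates. By size, 4 nuclear genes were at least 1.2-fold lower in vehicle with a counting interval that left out 0 (5.06%, against 8.37% of all genes) and 52 were in norepinephrine (65.8%, against 17%). Lower by this size in both pairs were 4 (Ndufb7, Ndufa2, Ndufc1 and Atp5g2), against 6.26% of all genes, and higher in both were 0, against 9.89%. The norepinephrine pair contains the shNC norepinephrine library, which also enters the response to norepinephrine in shNC. With the length trend removed, 24 nuclear genes were lower (30.4%, against 19.6% of all genes under that setting) and 1 was higher (against 13.1%). The nuclear medians were then -0.05 in vehicle and -0.16 in norepinephrine, against -0.03 and -0.03 for all kept genes.

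**Figure D2:**
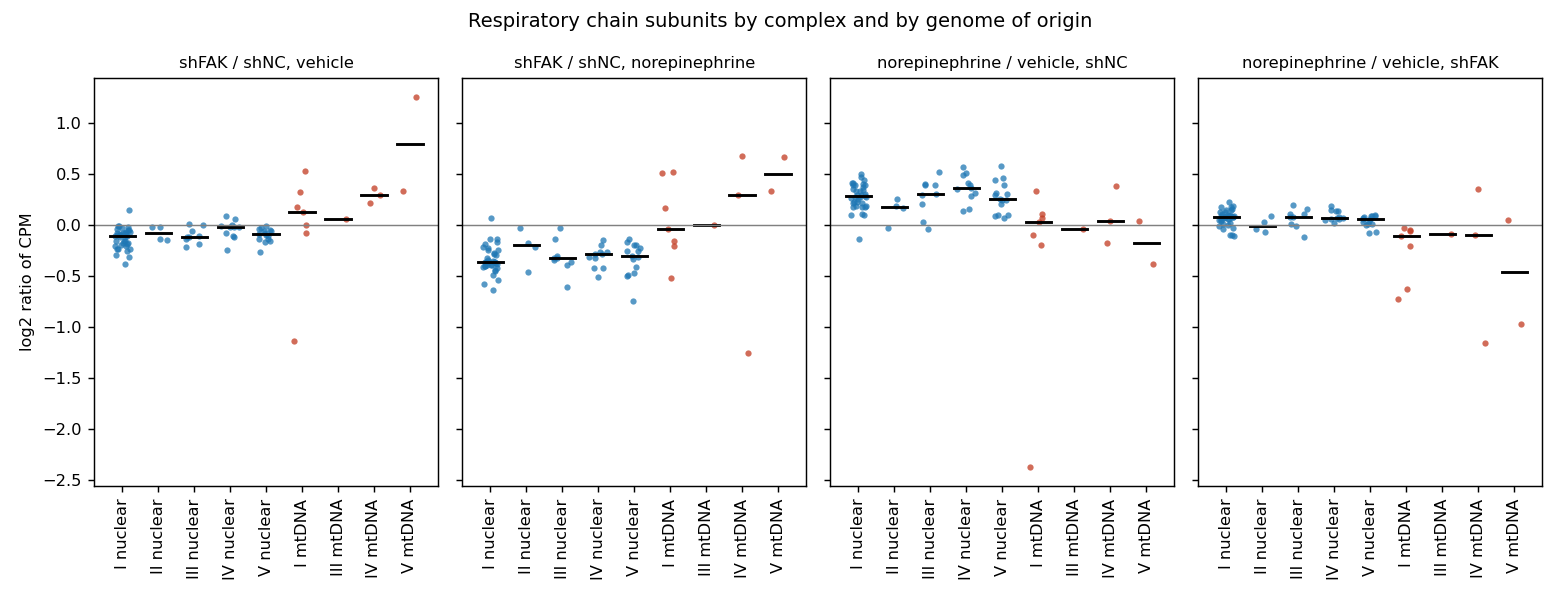
Log2 ratio of CPM of each subunit, grouped by complex and by genome, in the 4 pairs of libraries; points are genes and bars are medians. Nuclear groups lie near 0 in the vehicle and shFAK pairs and away from 0 in the pairs that contain the shNC norepinephrine library, where the medians over all nuclear genes are -0.32 and 0.29, while mitochondrially encoded (mtDNA) genes scatter widely.

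Complex I, the NADH dehydrogenase, had 23 of the 41 lower calls: 23 of its 36 nuclear genes fell in shFAK, and 35 of 36 had ratios below 0 in each pair. The medians were -0.11 and -0.36, with vehicle first. With the length trend removed 14 of the 36 were called lower, against 19.6% of all genes under that setting. Ndufa2, an accessory subunit of the NADH-binding arm, had 2766, 3456, 1893 and 2001 counts. Both shFAK libraries were below both shNC libraries, and the gene fell (log2 -0.51 ± 0.09, SE; adjusted p = 2.08e-07, edgeR). Ndufb7, an accessory subunit of the membrane arm (mm10, chromosome 8, 83566671 to 83571626), had 3534, 4236, 2579 and 2557 counts and fell by 0.44 ± 0.09 on the log2 scale (SE; adjusted p = 1e-05, edgeR). Ndufb11, a membrane-arm accessory subunit and second in level per length among nuclear genes of complex I, had 3982, 4537, 3312 and 3166 counts and fell less (-0.11 in vehicle and -0.37 in norepinephrine; adjusted p = 0.0226, edgeR). Ndufs1, the largest subunit and holder of several iron-sulfur clusters, was one of the exceptions, with 3589, 2932, 3051 and 2763 counts and an adjusted p of 0.967 (edgeR).

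Complex II is succinate dehydrogenase, also an enzyme of the citric acid cycle, and 1 of its 4 genes fell. That gene was Sdhc, a membrane anchor, with 1676, 1798, 1362 and 1178 counts (log2 -0.30 ± 0.09, SE; adjusted p = 0.00331, edgeR). Its ratio was -0.14 in the vehicle pair and -0.46 in the other. Sdha, the flavin subunit, had 8029, 7093, 7080 and 6241 counts and ratios of -0.02 and -0.03. Sdhb, the iron-sulfur subunit, had 6943, 6992, 5624 and 5417 counts (adjusted p = 0.0897, edgeR), and Sdhd, the other anchor, had 5503, 5637, 4875 and 4494 (adjusted p = 0.413, edgeR). The 3 genes that did not pass had ratios below 0 as well, from -0.02 to -0.22.

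In complex III, which passes electrons from ubiquinol to cytochrome c, 5 of 9 nuclear genes fell. With the length trend removed 1 of the 9 was called lower, against 19.6% of all genes under that setting. Uqcrb, a small subunit near the ubiquinone site, had 2168, 2406, 1708 and 1424 counts (log2 -0.40 ± 0.09, SE; adjusted p = 0.000108, edgeR). Uqcrc1, a core protein, had 8229, 8517, 6348 and 6054 counts (adjusted p = 0.00589, edgeR), whereas the partner core protein Uqcrc2 had 4131, 3619, 3542 and 3191, with ratios of -0.06 and -0.03. Cyc1, the cytochrome c1 subunit and the highest nuclear gene of complex III per length, had 9517, 10495, 7768 and 7572 counts and fell (adjusted p = 0.0271, edgeR). The carrier Cycs, whose promoter is shown above, had 5122, 5260, 4038 and 3755 counts and fell as well (adjusted p = 0.0116, edgeR). For both genes every shFAK library lay below every shNC library.

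Complex IV, cytochrome c oxidase, had the smallest shift in vehicle (median -0.02), and 4 of 11 nuclear genes fell. After removal of the length trend 0 of the 11 were called lower and 1 was called higher, against 19.6% and 13.1% of all genes under that setting. Its most abundant nuclear gene per length, Cox6a1, had 14646, 18527, 12437 and 12459 counts. The shFAK counts were nearly equal and the shNC norepinephrine library was far above the rest; the ratio of shFAK to shNC was -0.08 without norepinephrine and -0.42 with it (adjusted p = 0.0118, edgeR). Cox7a2 had 3342, 3299, 2524 and 2379 counts, with similar ratios in both pairs (-0.25 and -0.32; adjusted p = 0.00617, edgeR). Ndufa4, first named as a complex I gene and now counted with complex IV, had 5920, 6835, 4876 and 4587 counts and fell (adjusted p = 0.00756, edgeR). Cox8a had 7410, 8102, 6907 and 6596 counts and did not pass (adjusted p = 0.729, edgeR).

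Complex V had 7 of 15 genes lower in shFAK, and all 15 had ratios below 0 in both pairs. The same number, 7, were called lower after removal of the length trend, against 19.6% of all genes under that setting. The catalytic subunit genes Atp5b (57742, 55701, 50513 and 45611 counts) and Atp5a1 (38606, 36847, 31414 and 29574 counts) were the most abundant nuclear genes of the chain by counts and did not pass (adjusted p = 0.399 and 0.12, edgeR). Larger changes were seen in some of the small subunits. Atp5k, subunit e of the membrane part, had 2199, 2963, 1863 and 1593 counts, with ratios of -0.08 in the vehicle pair and -0.74 in the other (log2 -0.41 ± 0.09, SE; adjusted p = 4.73e-05, edgeR). The Atp5g genes encode the same c-ring protein of the rotor with different import signals: Atp5g2 had 5549, 6208, 4140 and 3965 counts and fell (adjusted p = 0.000129, edgeR), Atp5g3 had 10428, 11141, 8355 and 8049 and fell (adjusted p = 0.0187, edgeR), and Atp5g1 had 5398, 5743, 4810 and 4524 and did not pass (adjusted p = 0.388, edgeR).

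Among the paired isoforms of complex IV, the forms of heart and skeletal muscle had few or no counts. Cox6a1 had 12437 to 18527 counts, and its muscle form Cox6a2 had 0 or 1. Cox6b1 had 3251 to 4488 counts against 0 or 1 for the testis form Cox6b2. Cox7a2 had 2379 to 3342 counts against 23 to 33 for the muscle form Cox7a1. Cox7b had 3519 to 4701 counts against 0 or 1 for Cox7b2, and Cox8a had 6596 to 8102 against 0 or 1 for Cox8b and Cox8c. The minor forms did not exceed 33 counts in any library.

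The second comparison asks how 24 h of norepinephrine differed from vehicle. In the additive model 17 of 79 nuclear genes (21.5%) were higher with norepinephrine, against 5.04% of all kept genes, and 0 were lower, against 7.29%; 0 were lower also at an unadjusted p under 0.05 (edgeR). DESeq2's Wald test called 0 in either direction, against 24 higher and 63 lower of all 12351 kept genes. By that test 15 nuclear genes were higher at an unadjusted p under 0.05 (DESeq2). The 2 lines differed. In shNC the median log2 ratio was 0.29 with 76 of 79 genes above 0, and 43 genes were at least 1.2-fold higher with an interval leaving out 0 (54.4%, against 11.2% of all genes). In shFAK the median was 0.07 with 66 of 79 above 0, and 0 genes were that much higher (against 3.5% of all genes). Higher in both lines by that size were therefore 0, against 1.34% of all genes. The 17 genes comprised 7 of complex I, 3 of complex III, 4 of complex IV and 3 of complex V, and 0 of complex II. With the length trend removed 1 gene was higher (1.27%, against 2.69% of all genes under that setting), and with length and GC content removed 0 were (against 1.12%; 25 at an unadjusted p under 0.05, edgeR). Under these settings the nuclear share was below that of all genes.

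Cox6a1 was among the 17, and its log2 response was 0.49 in shNC against 0.15 in shFAK (adjusted p = 0.00402, edgeR). Uqcr10, a small subunit of complex III, had 3520, 4534, 3157 and 3174 counts and passed (log2 0.34 ± 0.09, SE; adjusted p = 0.00372, edgeR). Its ratio was 0.52 in shNC and 0.15 in shFAK. Ndufa2 had ratios of 0.47 and 0.22 (adjusted p = 0.00267, edgeR), and Atp5j2, subunit f of complex V, had 3949, 4906, 3299 and 3176 counts with ratios of 0.46 and 0.09 (adjusted p = 0.0196, edgeR). Ndufa11, whose promoter is shown above, had 2796, 3550, 2372 and 2277 counts and ratios of 0.50 and 0.08 (adjusted p = 0.015, edgeR). In these 5 genes the shNC norepinephrine library was the highest. Sdhb, with the largest mean response of complex II, had ratios of 0.16 and 0.09 (adjusted p = 0.372, edgeR).

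The difference between the 2 responses (log2 ratio in shFAK minus that in shNC) was below 0 in 76 of 79 nuclear genes, with a median of -0.21, against 47.6% of all kept genes below 0 and a median of 0.01. Past 1.2-fold with a 99% counting interval that left out 0 were 23 nuclear genes in the negative direction (against 4.37% of all genes) and 0 in the positive one (against 6.07%). Atp5k had the largest difference among them, -0.66 (99% interval -0.83 to -0.50), with responses of 0.58 in shNC and -0.08 in shFAK. Cox7c, a small subunit of complex IV, followed with -0.49 (-0.60 to -0.38); its counts were 4541, 5817, 4018 and 3687. The same 4 libraries give this difference as the difference of the 2 hairpin ratios, so it is not separate evidence from the ratios above. With the length trend removed, 13 of the 92 genes of both genomes passed this rule in either direction, against 28 without the correction. These intervals cover counting error only.

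**Figure D3:**
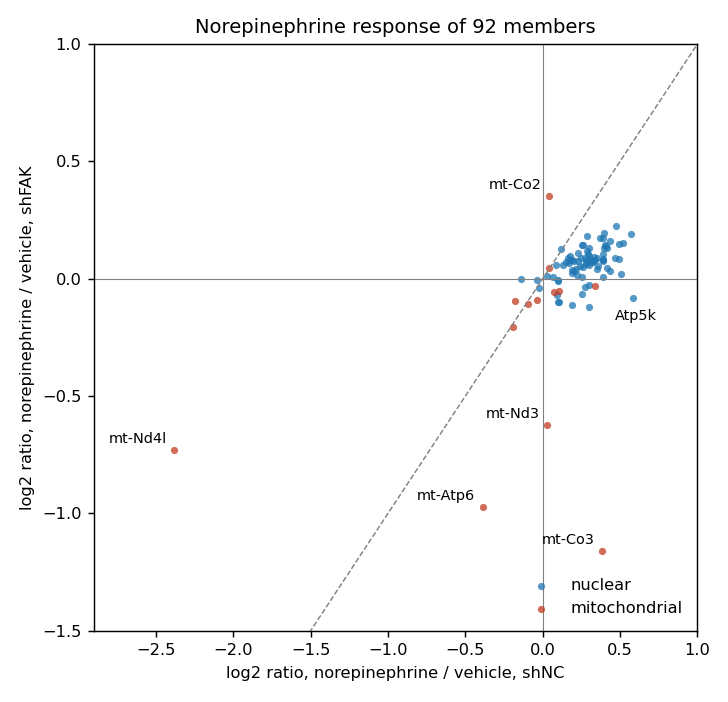
Log2 ratio of norepinephrine to vehicle for each of the 92 genes, in shNC on the x axis and in shFAK on the y axis; the dashed line marks equal responses. Nuclear genes cluster right of and below the line, and mt-Nd4l, mt-Co3, mt-Atp6 and mt-Nd3 lie far from it.

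Gene length moved with these ratios. Among the 26 shortest nuclear genes (419 to 1170 bases) the median log2 ratio of shFAK to shNC was -0.09 in vehicle and -0.37 in norepinephrine, and the 970 kept genes in that length range had medians of -0.18 and -0.34. Among the 27 longest (2259 to 8086 bases) the medians were -0.10 and -0.25, against 0.01 and 0.04 for 7548 genes of that range. The norepinephrine response in shNC had medians of 0.33, 0.29 and 0.20 in the short, middle and long genes, against 0.22, 0.18 and -0.01 in all genes of these ranges. In the short genes, the shNC response was above that of other short genes while the hairpin ratio in norepinephrine was close to theirs, and in the long genes both lay further from 0 than in other long genes. The part of length in the result was not tested beyond these values.

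**Figure D4:**
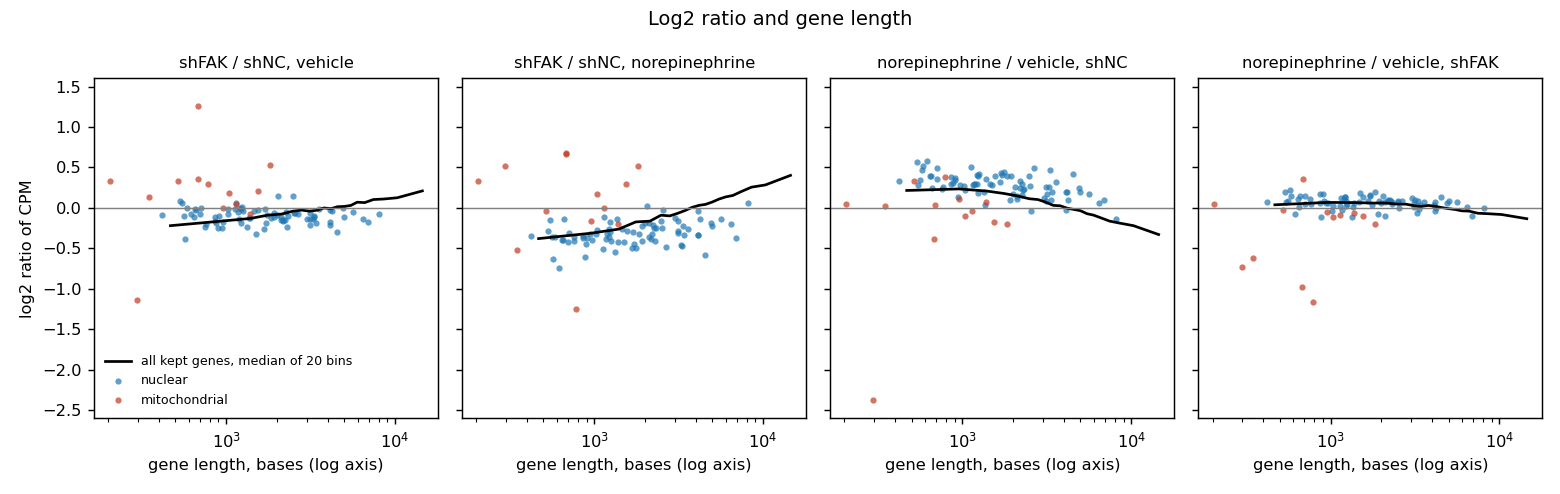
Log2 ratio against gene length in bases (log axis) for the 4 pairs of libraries; blue points are nuclear and red points mitochondrially encoded genes, and the black line joins the medians of all kept genes in 20 length bins. The line slopes upward in the hairpin pairs and downward in the norepinephrine pairs, and nuclear genes over about the median length of all genes, 3981 bases, lie below the line in the shFAK to shNC ratio with norepinephrine.

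Near-identical sequence elsewhere in the genome affects part of the nuclear set. Of the 79 genes, 42 share at least 100 bases at 95% identity or more with another annotated gene, mostly processed pseudogenes. The 37 without such a stretch gave 22 genes lower in shFAK (59.5%) and 8 higher with norepinephrine (21.6%). Some copies drew more counts than the gene: the processed pseudogene Gm15920 had 2003, 2310, 1532 and 1565 counts and Ndufa12 itself 1001, 1028, 759 and 635, and BC002163 had 1188, 1374, 1052 and 893 counts and Ndufs5 465, 548, 372 and 380. Values of these genes are uncertain, since the treatment of reads that match several places is not given in the sources used here.

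The same question bears on the mitochondrial genes. The reference genome holds a stretch of mitochondrial sequence on chromosome 1, where 7 annotated pseudogenes lie side by side on the minus strand between 24611535 and 24616197 (GRCm38). In the GENCODE M21 transcripts, the copies of mt-Co2, mt-Atp6, mt-Co3 and mt-Nd4l are identical to the gene over 681 of 684, 678 of 681, 783 of 784 and 294 of 297 bases. That of mt-Nd3 matches 344 of 345 aligned bases and differs by T3C, counted from the first base of mt-Nd3. The sequence of mt-Nd4l (chrM:9877-10173, plus strand) is shown because this gene had the largest ratio of the set. Its bases 1 to 294 are found unchanged in the copy Gm10222, and the 7 bases in capitals also belong to the next gene, mt-Nd4.
mt-Nd4l: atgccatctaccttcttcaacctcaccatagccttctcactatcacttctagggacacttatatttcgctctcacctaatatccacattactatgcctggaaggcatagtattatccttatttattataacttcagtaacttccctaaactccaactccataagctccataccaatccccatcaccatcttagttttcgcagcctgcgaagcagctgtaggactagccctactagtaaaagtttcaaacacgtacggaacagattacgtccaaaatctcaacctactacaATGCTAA
The 6 genes from mt-Co2 to mt-Nd4l, a stretch spanned by the chromosome 1 copies, among which none is annotated for mt-Atp8, had 26 to 2999 counts and 4.07 to 182.8 CPM per kb in a library. The other 7, of which mt-Co1 and mt-Nd4 are copied in part, had 7320 to 141564 counts and 466.9 to 3459 CPM per kb. How reads that match both places were counted is not given in the sources used here, and what the copies contribute was not tested beyond the sums of gene and copy, an alternative chosen after seeing the data.

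**Figure D5:**
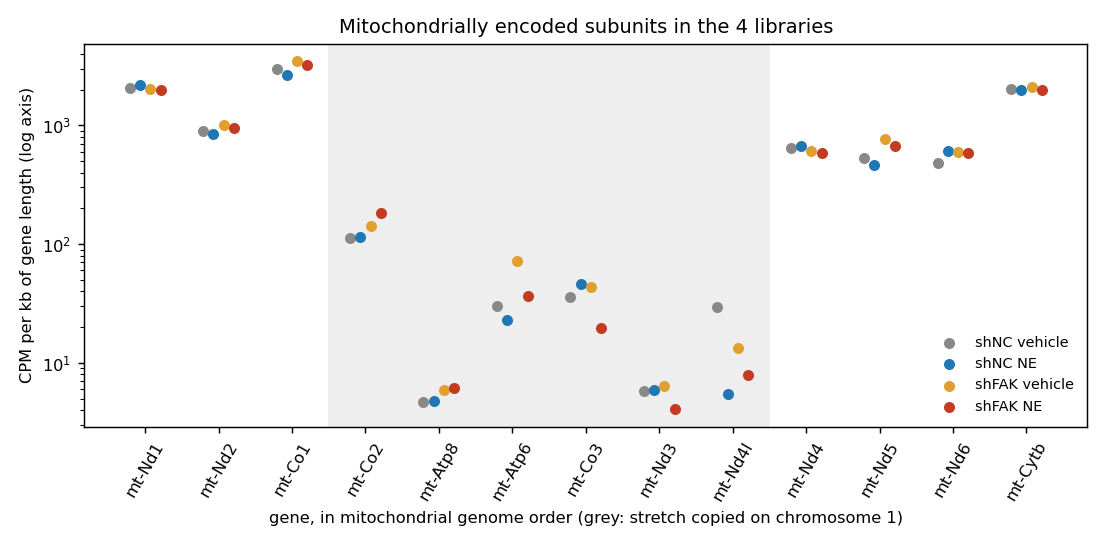
Level of the 13 mitochondrially encoded genes in each library, as CPM per kb of gene length on a log axis, in the order of the mitochondrial genome; the grey band marks the stretch from mt-Co2 to mt-Nd4l that is copied on chromosome 1, and NE is norepinephrine. Genes in the band lie at 4.07 to 182.8 CPM per kb and those outside it at 466.9 to 3459.

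The mitochondrially encoded genes did not share the direction of the nuclear ones. In shFAK 4 of 13 (30.8%) were called higher (against 19.5% of all genes) and 2 lower (against 16.2%) by the additive model, with median log2 ratios of 0.21 (vehicle pair) and 0.17 (norepinephrine pair). With the length trend removed these medians were 0.32 and 0.42, and 7 genes were called higher (53.8%, against 13.1% of all genes under that setting) and 0 lower (against 19.6%). Over the 4 genes without a near-identical annotated copy the medians were 0.19 and -0.02, so the sign in norepinephrine depends on genes with copies. At least 1.2-fold higher in both pairs were 3 (mt-Nd5, mt-Co2 and mt-Atp6), against 9.89% of all genes. In 6 genes both shFAK libraries lay above both shNC libraries (46.2%, against 30.3% of all genes) and in 2 both lay below (15.4%, against 29.2%). With norepinephrine 0 of 13 were higher, against 5.04% of all genes (1 at an unadjusted p under 0.05 by edgeR, 0 by DESeq2). Lower were 3 (23.1%, against 7.29%). Of these 3, 2 (mt-Nd4l and mt-Atp6) were at least 1.2-fold lower in both lines, against 1.84% of all genes. The median responses were 0.03 in shNC and -0.10 in shFAK, with 11 of 13 below 0 in shFAK. With the length trend removed the medians were -0.15 and -0.16, and 6 genes were lower (46.2%, against 2.64% of all genes under that setting). By the difference of responses, 3 passed in the negative direction (mt-Nd6, mt-Co3 and mt-Atp6), against 4.37% of all genes. In the positive direction 2 passed (mt-Nd4l and mt-Co2), against 6.07%.

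Among the 7 genes with high counts, mt-Co1, the catalytic subunit of complex IV and the highest of all members per length, had 136573, 108591, 141564 and 119894 counts and rose in shFAK (log2 0.25 ± 0.07, SE; adjusted p = 0.0018, edgeR). mt-Nd5, a proton-pumping subunit of complex I, had 28820, 22673, 37204 and 29230 counts. Both shFAK libraries lay above both shNC libraries relative to depth, and the gene rose (log2 0.52 ± 0.08, SE; adjusted p = 2.83e-09, edgeR), with ratios of 0.53 and 0.52 in the 2 pairs. mt-Cytb, the cytochrome b subunit and the mitochondrial part of complex III, had 68917, 60468, 64038 and 54468 counts with ratios of 0.05 and 0.00. It did not pass for the hairpin, but was called higher in shFAK with the length trend removed (adjusted p = 0.00629, edgeR).

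The other high genes, all of complex I, did not pass, although mt-Nd2 and mt-Nd6 were called higher in shFAK with the length trend removed (adjusted p = 0.000163 and 0.000417, edgeR). mt-Nd1 had 57855, 56006, 51723 and 45146 counts, and mt-Nd2 had 27492, 23171, 27894 and 23439 (adjusted p = 0.427 and 0.08 for the hairpin, edgeR). mt-Nd4 had 26093, 24675, 22179 and 19280 counts (adjusted p = 0.173, edgeR). mt-Nd6 is the one protein-coding gene on the opposite strand and overlaps the end of mt-Nd5 (positions 13552 to 13565), so without strand the reads there cannot be assigned. It had 7344, 8352, 8253 and 7320 counts; the ratio of norepinephrine to vehicle was 0.34 in shNC and -0.03 in shFAK, a difference of -0.37 (99% interval -0.45 to -0.28).

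The most extreme ratios were among the 6 low genes, which included all 3 genes past 2-fold in any pair. Past 2-fold were mt-Nd4l and mt-Atp6 with shFAK in vehicle (against 1.88% of all genes in either direction), mt-Co3 with shFAK in norepinephrine (against 3.25%), mt-Nd4l with norepinephrine in shNC (against 0.858%) and mt-Co3 with norepinephrine in shFAK (against 0.874%); no nuclear gene was. mt-Atp6, subunit a of complex V, had 601, 413, 1288 and 593 counts and rose in shFAK (log2 0.99 ± 0.10, SE; adjusted p = 8.81e-21, edgeR). It fell with norepinephrine (log2 -0.70 ± 0.10, SE; adjusted p = 7.3e-10, edgeR). Summed with its copy Gm10925 the counts were 1227, 933, 1770 and 1004, and the ratios of shFAK to shNC went from 1.26 and 0.67 to 0.69 and 0.26.

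mt-Co3, a core subunit of complex IV, had 826, 972, 907 and 366 counts, so the shFAK norepinephrine library alone was low. The ratio of shFAK to shNC was 0.29 in vehicle and -1.25 in norepinephrine. The lower call of the additive model (adjusted p = 0.000103, edgeR) has the direction of the norepinephrine pair only. With Gm28437 added the counts were 1471, 1646, 1427 and 842, and the 2 ratios were 0.11 and -0.82. mt-Nd4l, a small membrane subunit of complex I, had 258, 43, 104 and 56 counts, so the shNC vehicle library alone was high. Its ratios with shFAK were -1.14 in vehicle and 0.51 in norepinephrine, so the lower call for the hairpin has the direction of the vehicle pair only. The response to norepinephrine was -2.38 in shNC and -0.73 in shFAK. With Gm10222 added the response in shNC was -1.44 and that in shFAK -0.58.

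mt-Co2, which carries the copper centre that takes electrons from cytochrome c, had 2260, 2088, 2594 and 2999 counts and rose in shFAK (log2 0.52 ± 0.09, SE; adjusted p = 1.86e-07, edgeR). With Gm28661 added the ratios were 0.12 in vehicle and 0.41 in norepinephrine, against 0.36 and 0.67 for the gene alone. mt-Nd3 had 60, 55, 59 and 34 counts and mt-Atp8 28, 26, 32 and 30, and neither passed. The 4 mitochondrial genes without a near-identical annotated gene elsewhere, mt-Nd1, mt-Cytb, mt-Nd6 and mt-Atp8, gave 0 calls for either factor by edgeR (0 at an unadjusted p under 0.05). After removal of the length trend 2 of them, mt-Cytb and mt-Nd6, were called higher in shFAK and 1, mt-Cytb, was called lower with norepinephrine. The genes with copies include 2 with high counts that rose in shFAK. For mt-Nd5 the only copy found, Gm4076, had 0, 1, 1 and 1 counts. For mt-Co1 the ratios of shFAK to shNC were 0.21 and 0.29, both alone and with Gm29216 added.

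By deposited gene length, the highest gene of complexes I, III and IV was mitochondrially encoded. In complexes I and IV, other mitochondrial genes lay below nuclear ones. In complex IV, the mean over libraries was 3081 CPM per kb for mt-Co1 and 776.4 for Cox6a1, the highest nuclear member, followed by Cox8a with 500.3. Below both nuclear genes lay mt-Co2 (138.1) and mt-Co3 (36.3). In complex III it was 2030 for mt-Cytb and 277.4 for Cyc1 and 231.5 for Uqcr10. In complex I it was 2062 for mt-Nd1 and 165.3 for Ndufa2 and 154.8 for Ndufb11. In complex V the nuclear Atp5b (463.4) and Atp5a1 (407.4) lay above mt-Atp6 (40.1) and mt-Atp8 (5.37), both of which lie in the stretch spanned by the chromosome 1 copies. In complex II, Sdhd (156.2) and Sdhb (104.5) were highest. The deposited length takes in most of the locus for some genes, such as Ndufb7 (4522 bases, positions 83566671 to 83571626; 26.7 CPM per kb). Levels per kb of such genes may be too low, and the rankings under other lengths were not tested.

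Genes that work with the chain gave counts as follows, from lists drawn up with earlier results of these data known, each read against the 16.2% lower and 19.5% higher of all genes for the hairpin and 7.29% and 5.04% for norepinephrine. Of 15 complex I assembly genes, 5 fell in shFAK and 2 rose with norepinephrine; Ndufaf2 had 635, 742, 449 and 464 counts (adjusted p = 0.000132 for the hairpin, edgeR) and Ndufaf8 993, 1151, 718 and 745. Of 26 assembly genes of complexes II to V, 4 fell and 1 rose in shFAK and 2 rose with norepinephrine; the riser in shFAK was Coa5 (log2 ratios 0.33 and 0.28). Of 9 related subunits outside the name pattern, 3 fell in shFAK and 2 rose with norepinephrine; Cox4i1 had 15962, 17897, 12742 and 11683 counts (adjusted p = 0.00113 for the hairpin, edgeR), with ratios of -0.17 and -0.46, and 2010107E04Rik had ratios of -0.15 and -0.46.

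Of 17 genes for transcription and replication of mitochondrial DNA, 3 fell and 1 rose in shFAK. Twnk, the mitochondrial helicase, had 1747, 1471, 1230 and 1005 counts (log2 ratios -0.35 and -0.40; adjusted p = 0.000191, edgeR), and Ssbp1, the single-strand binding protein, had 3919, 3849, 2884 and 2692 (adjusted p = 0.00138, edgeR). Of 17 genes for mitochondrial RNA processing, 2 rose and 2 fell in shFAK and 1 fell with norepinephrine; Fastkd1 rose, with 492, 413, 559 and 573 counts (adjusted p = 2.54e-05, edgeR). Of 19 genes of the citric acid cycle and pyruvate entry, 1 fell in shFAK, Mdh2, the mitochondrial malate dehydrogenase (17765, 17872, 12999 and 11883 counts; adjusted p = 0.000129, edgeR), and 1 rose with norepinephrine, Mpc2, a subunit of the pyruvate carrier (1120, 1476, 1127 and 1121 counts). Of 7 carriers and uncoupling proteins, 4 fell in shFAK; Ucp2 had ratios of -0.45 and -0.51 and the phosphate carrier Slc25a3 -0.22 and -0.28.

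Of 11 kept regulators of respiratory genes, 4 rose in shFAK and 0 fell (edgeR). With length and GC trends removed 3 rose and 3 fell, against 1588 and 2386 of 12335 genes under that setting. Ppargc1a, the coactivator PGC-1alpha, had 342, 316, 720 and 614 counts, and its log2 ratio was 1.23 without and 1.10 with norepinephrine (adjusted p = 6.46e-27, edgeR). Esrra, a nuclear receptor that acts on many of these genes, had 812, 1055, 1082 and 1195 counts and rose in shFAK (adjusted p = 1.73e-05, edgeR) and with norepinephrine (adjusted p = 0.000654, edgeR). With norepinephrine 1 regulator rose and 2 fell.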

How the data were processed

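RNA from 4 libraries, 1 per group, was extracted with Trizol and sequenced from NEBNext Ultra libraries, per the labels' protocols. The raw gene counts were deposited by the authors, who used HISAT2 2.0.5, featureCounts 1.5.0-p3 and mm10, per the submitters' processing notes; strand setting, annotation release and treatment of reads with several matches are not given in the sources used here. Genes with at least 1 CPM in a library (12351) were scaled by TMM. Log2 ratios used a prior count of 2, with exact 99% intervals that cover counting error only. Hairpin and treatment were fitted additively with edgeR 4.0.16 (quasi-likelihood, R 4.3.3) and Benjamini-Hochberg adjustment over all kept genes, after a test on simulated data. DESeq2 1.42.0 was an alternative, as were other scalings, filters, prior counts, length and GC corrections, and leaving out members with copies. Copies were found with minimap2 2.31-r1302 (at least 100 matching bases, 95% identity) and aligned with MAFFT 7.526.

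Values were given for all mitochondrial genes, for the highest and most changed nuclear genes of each complex, for genes past 2-fold, for the largest differences of response, and for isoform families, with at most 2 genes per related list. Ndufs1, Uqcrc2, Ndufa11, Ndufa12, Ndufs5 and Ndufc1 were named after their values were seen. The members and lists were chosen with earlier results of these data known. Some luminal markers are not reported here.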

Additional observations from a re-analysis of the deposited data

Results flagged for a closer look

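In 4 genes the norepinephrine ratios of the 2 lines pointed in opposite directions, each with a counting interval that left out 0; with 1 library a group the difference was not tested between replicates. The response in shFAK minus that in shNC was -0.1636 for Atp5c1, the gamma subunit of complex V, -1.5475 for mt-Co3, -0.1575 for mt-Nd1 and -0.1297 for mt-Nd4. Of these, mt-Co3 alone exceeded 1.2-fold.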

How the results depend on the processing

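Every nuclear median kept its sign under the settings run, as did the mitochondrial medians for the hairpin in vehicle and for norepinephrine in shFAK. The mitochondrial median for the hairpin in norepinephrine changed sign without genes with copies, and that for norepinephrine in shNC, 0.0252, changed sign with library size alone (-0.0074), at 5 CPM and with length, or length and GC, removed. No paired analysis was possible because each group has 1 library, and a test without 1 library has no residual degrees of freedom; the vehicle pair alone gave 4 of 79 nuclear genes at least 1.2-fold lower in shFAK. The 41 nuclear genes called for the hairpin became 15 with library size alone, 25 with the length trend removed, 26 with length and GC removed, 22 of 37 without members with copies, 8 with DESeq2's Wald test and 1 with a 1.2-fold test. Of all 12351 kept genes, 1162 were lower with library size alone, 2423 with length removed, 760 with the Wald test and 353 with the 1.2-fold test. With length and GC removed 2386 of 12335 were lower and 1588 higher. Under the 1.2-fold test the nuclear share was below that of all genes. The 6 mitochondrial genes called for the hairpin, which all have a copy, became 0 of 4 without copies (0 at an unadjusted p under 0.05, edgeR). With the 1.2-fold test they became 3, all higher (796 of all 12351 kept genes were). With length and GC removed, 7 mitochondrial genes were higher and 0 lower. The 17 nuclear genes called for norepinephrine became 5 with library size alone, 3 with no filter, 1 with length removed, 0 with length and GC removed (25 unadjusted, edgeR), 8 without copies, 0 with the Wald test (15 unadjusted, DESeq2) and 0 with the 1.2-fold test (0 unadjusted, edgeR). Over all genes, 306 of 12351 were higher with library size alone and 280 of 27256 with no filter. With length removed 332 of 12351 were, with the Wald test 24 and with the 1.2-fold test 42. The 3 mitochondrial genes called for norepinephrine became 6 with length removed, 0 without copies (0 unadjusted, edgeR) and 0 with the Wald test (3 unadjusted, DESeq2, which gave these no adjusted p). The 28 differences of response became 13 with length removed, 13 with length and GC removed, 11 without copies and 4 at 1.5-fold.

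Medians moved as follows. For shFAK against shNC in vehicle, the mitochondrial median was 0.3166 with length removed and 0.2675 with length and GC removed. With norepinephrine, the nuclear median was -0.236 with library size alone, -0.159 with length removed and -0.1494 with length and GC removed, and the mitochondrial one was 0.2549, 0.4164 and 0.3539 under the same settings, 0.1147 with no filter and -0.02 without copies. For norepinephrine in shNC, the nuclear median was 0.158 with length removed and 0.1667 with length and GC removed. The mitochondrial one was -0.0343 at 5 CPM, -0.1541 with length removed, -0.0644 with length and GC removed and 0.0732 without copies. In shFAK it was -0.1622 with length removed and -0.0411 without copies. The causes were not tested, except that fewer genes enter where copies are left out.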
